A study of Mus musculus with 4 samples.

Results

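The cells described here were oligodendrocytes that carried several myelin transcripts but few or none of a set of 6 genes. These genes, Phactr3, Apod, Kcna1, Hapln2, Map7d2 and Nap1l5, marked a large group of oligodendrocytes in the same brains. Barcodes were kept that had 500 or more unique molecular identifiers (UMIs, each standing for 1 captured mRNA molecule), 250 or more genes and less than 20% of UMIs from mitochondrially encoded genes. A kept barcode was a member when at least 4 of the 6 myelin genes Mag, Mog, Ermn, Ugt8a, Cldn11 and Mobp had a UMI, when Csf1r (microglia), Cldn5 (endothelium) and Enpp6 (newly formed oligodendrocytes) had none, and when at most 1 of the 6 Apod-type genes had one. The members were thus chosen by the measured UMI counts of these 15 genes, whose levels are given only as a description. It chose 338 of 60942 kept barcodes, 50 and 156 in the control libraries Flox 1 and Flox 2 and 75 and 57 in Ms4a3-cko 1 and Ms4a3-cko 2. No member barcode sequence occurred in more than 1 library.

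Oligodendrocytes wrap axons of the central nervous system in myelin, a stack of membrane rich in cholesterol and galactolipids and held together by proteins such as Mbp. They arise from precursors, pass through a short Enpp6-positive stage, and then persist for long periods as mature cells that insulate axons and feed them with metabolites. Because they depend on a steady energy supply, they are among the cells that suffer in ischemic white matter.

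The 4 libraries came from whole ipsilateral hemispheres of adult male and/or female mice, dissected 3 days after transient middle cerebral artery occlusion, a stroke model in which a brain artery is blocked and reopened. The 2 Flox libraries were from Htr2b flox/flox littermate controls, and the design text gives the other genotype as Htr2b ERCre; Ms4a3-Cre (2 Ms4a3-cko libraries), while the genotype field of every sample reads C57B6. Both groups had been given tamoxifen with a 3-day washout before surgery, and recombination was meant for myeloid cells through Ms4a3, a gene of granulocyte and monocyte progenitors, so the oligodendrocytes of either group were not the intended target. Cells were captured without enrichment in the microwells of the BD Rhapsody system, and values are given below in the order Flox 1, Flox 2, Ms4a3-cko 1 and Ms4a3-cko 2. The labels do not name the animal behind each library, so every p-value measures only the spread between these libraries, which may be technical.

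The libraries held between 77580518 and 105566650 UMIs and between 13515 and 16514 kept barcodes, and the members together held 920126 UMIs. Levels are in CPM (a gene's UMI count, summed over the members of a library and scaled to the same total in every library). The 5 label markers Ugt8a, Mag, Mog, Ermn and Tspan2 were all present in every library and summed to 7100, 5761, 2742 and 3287 CPM. All of them except Tspan2 were genes of the rule, so their presence was largely fixed in advance. The same sum was 12225, 11134, 7244 and 8373 CPM in oligodendrocytes with 2 or more of the 6 Apod-type genes. In those with an Enpp6 UMI it was 10956, 11068, 6898 and 7228 CPM. The 6 precursor markers (Pdgfra, Cspg4, Vcan, Ptprz1, Lhfpl3 and Gpr17) summed to 86.7, 120, 127 and 96.0 CPM in members. Their sum was 113, 181, 88.1 and 88.0 CPM in oligodendrocytes with 2 or more Apod-type genes. Only Gpr17 of that list, which marks committed precursors, had no UMI in any member. The 4 Schwann cell and 3 erythroid markers had none either, and no 2 of the 6 Apod-type genes could be present by the rule. The name "without Apod-type genes" was only partly borne out, since 40, 104, 53 and 44 members carried 1 such gene and 10, 52, 22 and 13 carried none. Apod itself, a secreted lipid-binding protein, stood at 909.96, 1221, 1545 and 809.8 CPM in the members and at 1150.5, 2135, 14617 and 10743 CPM in the oligodendrocytes with 2 or more of the 6 genes (called Apod-type cells here).

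Transcripts of other cell types were also present, and those of macrophages and fibroblasts lay largely in single barcodes. The 7 monocyte-macrophage markers (Arg1, Chil3, Ms4a7, Lyz2, Ccr2, Plac8 and Ly6c2) summed to 10907, 5467, 798 and 1200 CPM, and 1 barcode held 93.0, 65.2, 71.4 and 83.0% of those UMIs. The 5 fibroblast markers summed to 1981, 413, 31.7 and 12 CPM, and 316 of the 320 UMIs in Flox 1 lay in 1 barcode. The 7 microglia markers were more spread out, with summed levels of 1678, 1199, 196 and 678 CPM and 58.7, 17.5, 8.06 and 22.1% of the UMIs in 1 barcode; Csf1r was at 0 by the rule. The 6 astrocyte markers summed to 92.9, 156, 117 and 360 CPM, with 46.7, 11.6, 29.7 and 55% in 1 barcode. More than 1% of the UMIs were markers of another cell type in 6, 11, 4 and 4 members. Scrublet, which scores barcodes against simulated doublets, marked 24, 11.5, 5.33 and 5.26% of the members as doublets, against 2.22, 1.5, 2.50 and 2.10% of all kept barcodes. The part of these transcripts in the genotype differences was not tested, and most of the called genes are also given without the members above 1% other-type UMIs.

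Depth set the members apart from the other oligodendrocytes in 3 of the 4 libraries. Members had a median of 1506.5, 832.5, 3781 and 1828 UMIs, and Apod-type cells had a median of 5854, 5419, 3494.5 and 3502. In Flox 2, 62.8% of the members had under 1000 UMIs, compared with 34% in Flox 1, 16% in Ms4a3-cko 1 and 36.8% in Ms4a3-cko 2. At the edge of the rule, the 40, 104, 53 and 44 members with exactly 1 Apod-type gene had medians of 1810.5, 924, 3444 and 1291.5 UMIs, and the 58, 100, 95 and 103 barcodes just outside it, with 2 such genes, had medians of 4488, 3271.5, 3105 and 3091 UMIs. At the other edge, 20, 63, 49 and 33 members had exactly 4 of the myelin genes, and 19, 76, 99 and 56 barcodes with 3 were left out. When each Apod-type cell was thinned at random to 1000 UMIs, 57.8% (Wilson 95% interval 50.5 to 64.8) of those in Flox 1 and 43.4% (38.7 to 48.2) of those in Flox 2 met the member rule. The same thinning turned 12.9% and 9.46% of the Apod-type cells of Ms4a3-cko 1 and Ms4a3-cko 2 into members. At 4000 UMIs the shares were 7.97, 6.42, 3.40 and 1.83%. Thinning therefore moved cells into the rule in every library, and in larger shares in both Flox libraries than in both Ms4a3-cko libraries.

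**Figure D1:**
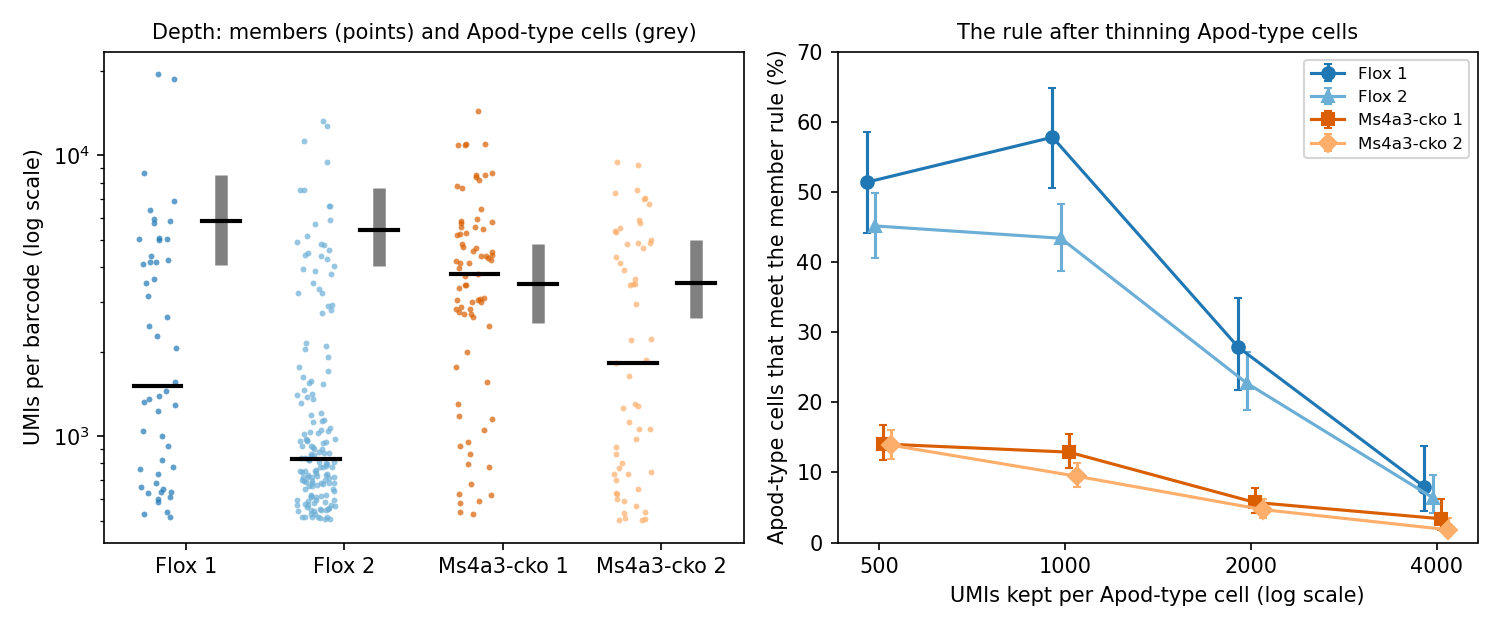
Left, UMIs per barcode on a log scale for every member (points, with a black line at the median) beside Apod-type cells (grey bar for the middle 50% and a black line at the median), by library. Right, the share of Apod-type cells that met the member rule after thinning to 500, 1000, 2000 and 4000 UMIs, with Wilson 95% intervals that cover counting error only. The Flox points at 1000 UMIs, 57.8% and 43.4%, lie above the Ms4a3-cko points at 12.9% and 9.46%.

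The transcripts that filled the members were those of a myelinating cell. Mbp, the protein that joins the inner faces of the myelin membrane, stood at 5225, 2340, 1139.8 and 1578 CPM. Both Flox libraries lay above both Ms4a3-cko libraries for Mbp. In bulk sums of this kind, a different mix of cells and a different level per cell cannot be told apart. Car2, a carbonic anhydrase of mature oligodendrocytes, was even across libraries at 3429, 4916, 4303 and 4289 CPM, and Gatm, an enzyme of creatine synthesis, stood at 4506, 3293, 3659.9 and 4163 CPM. Of the 20 highest genes by mean level, 7 were mitochondrially encoded, and Lyz2 and Spp1 reached the list only through the Flox libraries. The lineage factor Sox10 was nearly level at 340.5, 308, 319.8 and 329.9 CPM, and Myrf, the factor that switches on myelin genes, stood at 322, 268, 203 and 348 CPM with overlapping groups.

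Levels also varied with depth among the members. The 24, 34, 56 and 27 members with 2000 or more UMIs were summed apart from the shallower ones, as a description. Cd44, a hyaluronan receptor of glia and leukocytes, summed to 310, 1508, 1651 and 1461 CPM in the members with 2000 or more UMIs and to 43.6, 436, 271 and 493 CPM in the shallower ones. Sox2, a factor of neural progenitors, stood at 151, 354, 804 and 442 CPM in the first and at 0, 109, 108 and 114 CPM in the second. Lmo4, a LIM-domain transcriptional cofactor, stood at 86.6, 131, 387 and 428 CPM in the deeper members and at 0, 9.91, 108 and 0 CPM in the shallower ones. The shallower members held only 22920, 100933, 18472 and 26389 UMIs in all. Their values of Sox2 and Lmo4, and that of Cd44 in Flox 1, therefore rest on few UMIs. With that limit, all 3 genes had higher values in the deeper members of 4 of 4 libraries. Mal, a membrane-raft protein of myelin, went the other way, at 3124, 2525, 817 and 1254 CPM in the deeper members and 4668, 5558, 3356 and 3903 CPM in the shallower ones, again in all 4 libraries.

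Set beside Apod-type cells of the same library, the members had lower levels of Abca8a, Anln and Omg and higher levels of Cd44 and Syt4. Because the rule chose both sets of cells from the same counts, these differences are descriptions without a test, given as log2 ratios with 10 CPM added and averaged over the 4 libraries. The genes of at least 100 CPM with the largest ratios towards the Apod-type cells were Abca8a, a lipid transporter (−2.83), Anln, an actin-binding scaffold of myelin (−2.12), Zfp365 (−1.95), Omg, the oligodendrocyte-myelin glycoprotein (−1.91), Cntn2, an adhesion protein of the juxtaparanode (−1.88), Sez6l2 (−1.88), Ptgds, prostaglandin D synthase (−1.86), Mal (−1.78), Tmem229a (−1.74) and Enpp2, autotaxin (−1.74). Each of these 10 was lower in the members of all 4 libraries. Abca8a stood at 74.3, 14.5, 3.17 and 0 CPM in members and at 273, 123, 118 and 135 CPM in Apod-type cells.

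The genes with the largest ratios towards the members fell into those that did and those that did not depend on the barcodes with other-type markers. Cd44 stood at 272, 1116, 1570.4 and 1308 CPM in members and at 100.04, 233, 315 and 133 CPM in Apod-type cells, a mean log2 ratio of 2.27 that was 2.29 without members above 1% other-type UMIs. Syt4, a synaptotagmin of secretory vesicles, stood at 155, 551, 3087 and 1775 CPM in members and at 79.2, 97.5, 460.3 and 197 CPM in Apod-type cells, with a ratio of 2.27 that became 2.46. Sv2c, a vesicle glycoprotein, had a ratio of 2.17 that became 2.33. The summed levels of these genes were higher in the members of all 4 libraries. Syt4 was read in 8, 11.5, 30.7 and 21.1% of members and in 13.1, 8.80, 8.24 and 4.84% of Apod-type cells. Cd44 was read in 20, 28.2, 66.7 and 47.4% against 24.6, 27.8, 23.6 and 12.4%. In Flox 1 both shares were thus lower in members, which were also shallower there. With cells thinned to equal depth, both shares were higher in members of all 4 libraries. In Flox 1 the thinned shares rested on 2 and 3 members. Without the members above 1% other-type UMIs, the ratio of Spp1, osteopontin, went from 2.52 to 0.44 and that of Lyz2, lysozyme, from 2.40 to −0.21. Tgfbi, a matrix protein, went from 2.50 to 1.47 and Emp1, a membrane protein, from 2.41 to 1.72. Pla2g7 went from 2.41 to 1.34, Mpeg1 from 2.18 to 0.36 and Ctss from 2.18 to 0.58. The 79 ribosomal-protein genes made up 3.12, 2.66, 3.48 and 3.25% of the members' UMIs and 1.58, 1.42, 1.7 and 1.39% of those of Apod-type cells, so the share was higher in the members of every library.

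Beside the Enpp6-positive oligodendrocytes, Anln had the largest ratio away from the members. It stood at 173, 185, 44.3 and 42.0 CPM in members and at 579, 734, 1381 and 1954 CPM in Enpp6-positive cells, a mean log2 ratio of −3.38. Plin3, a lipid-droplet protein, followed at −2.49. Towards the members, the largest ratios were those of Spp1 (3.36), Lyz2 (3.05) and Tgfbi (2.89). Without the members above 1% other-type UMIs they became 1.28, 0.45 and 1.86. The ratios of F13a1 (2.70), Pla2g7 (2.70), Ahnak (2.66), Ctss (2.60) and Pim1 (2.56) became 0.78, 1.62, 1.85, 1.00 and 2.24. Kit, a receptor tyrosine kinase, stood at 49.5, 79.7, 240.6 and 162 CPM in members against 3.90, 12.9, 17.6 and 3.23 CPM. Its ratio of 2.74 was 2.90 without the members above 1% other-type UMIs. Atf3, a stress-induced transcription factor, stood at 191.9, 152, 98.1 and 288 CPM against 4.26, 28.4, 19.1 and 45.2 CPM, with a ratio of 2.56 that became 2.35.

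The members were a small and uneven share of the oligodendrocytes. Of all barcodes that met the myelin, Csf1r and Cldn5 conditions (515, 1225, 1053 and 1565 gated oligodendrocytes), the members were 9.71% (exact Clopper-Pearson 95% interval 7.29 to 12.6), 12.7% (10.9 to 14.7), 7.12% (5.64 to 8.85) and 3.64% (2.77 to 4.69). Both Flox shares lay above both Ms4a3-cko shares, with a difference of −5.84 percentage points between the group means of 11.2% and 5.38% (2-sided exact permutation p = 0.333, the smallest that 2 against 2 libraries can give). The Apod-type share ran the other way, at 35.5, 35.3, 70.3 and 69.9%, and the Enpp6-positive share stood at 54.8, 52, 22.6 and 26.5%. Of all kept barcodes the members were 0.370, 0.945, 0.491 and 0.365%, a difference of −0.23 percentage points with overlapping groups (exact permutation p = 0.667), which became 0.058 points without Flox 2. Among gated oligodendrocytes with 2000 or more UMIs, members were 5.02, 3.32, 5.90 and 1.89%, and the groups overlapped. When each barcode with 2000 or more UMIs was thinned to 2000 before the rule was applied, members were 21.9, 17.0, 8.40 and 6.08% of the gated barcodes, a difference of −12.2 points without overlap (exact permutation p = 0.333). With 0 Apod-type genes required, the shares were 1.94, 4.24, 2.09 and 0.831%, a difference of −1.63 points with overlapping groups (exact permutation p = 0.667). Without predicted doublets they were 7.63, 11.6, 6.91 and 3.51%, a difference of −4.42 points. The size of the difference, and whether the groups overlapped, therefore moved with depth and with the rule, and each interval covers counting error only.

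The gene targeted in the study, Htr2b, on chr1:86099026-86111970 of GRCm38 (the build that mm10 names), was almost unread in these cells. It had 8, 11, 1 and 3 UMIs in 1, 5, 1 and 3 members, which was below the filter for a test. Where the deleted part of the gene lies is not given in the labels, so these 3′ tags do not check the deletion. Ms4a3 had no UMI among 920126, which allows a level of up to 3.26 CPM. None of the 13 listed serotonin receptor and transporter genes had enough counts to be tested.

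Between genotypes, the metallothioneins Mt1 and Mt2 and Cryab were higher, and Lyz2, Apoe and 6 other genes were lower, in the members of the Ms4a3-cko libraries. Among the 16 genes that passed, Mt1, Mt2, Cryab, Lmo4, Btc, Sox9, Chil3 and Pakap rose and Lyz2, Apoe, Ms4a7, Cd74, H2-Ab1, Lpl, Mgp and Col1a2 fell. No myelin gene passed lower over all members, although most of them had lower values in both Ms4a3-cko libraries and several passed in a subset of the members described below. UMIs were summed per library and tested with edgeR's quasi-likelihood test with Benjamini-Hochberg adjustment at 0.05 over 4511 genes. The 16 called genes were 0.355% of those tested, with 0.177% called higher and 0.177% called lower, 676 genes had an unadjusted p under 0.05, and the median log2 fold change over all genes was −0.0026. No gene was called without Flox 1 (407 at an unadjusted p under 0.05), and 441 were called without Flox 2, 38 without Ms4a3-cko 1 and 66 without Ms4a3-cko 2, each of which leaves 1 library in a group that is then assumed to vary like the other group.

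The metallothioneins Mt1 and Mt2 bind zinc and copper and are induced by metals, glucocorticoids and oxidative stress. They lie beside each other on chr8:94179082-94180327 and chr8:94172664-94173568, are similar in sequence, and could share reads. Mt2 stood at 12.4, 54.3, 446 and 456 CPM. Mt1 stood at 80.5, 105, 443 and 486 CPM. Both Ms4a3-cko libraries were several times above both Flox libraries for each gene, and the UMIs were spread over 36 and 22 members for Mt2 and over 47 and 29 for Mt1 in the Ms4a3-cko libraries. The log2 fold changes (Ms4a3-cko over Flox, with standard error) were 3.52 ± 0.47 for Mt2 (edgeR adjusted p = 0.0249) and 2.22 ± 0.32 for Mt1 (edgeR adjusted p = 0.0298). In the members with at most 1% other-type UMIs they were 3.34 and 2.04, and both were called (edgeR adjusted p = 0.012 and 0.0236). Mt2 was not called without predicted doublets (3.62, edgeR adjusted p = 0.0514), and neither gene was called at 2000 or more UMIs (3.57 and 2.22, edgeR adjusted p = 0.121 and 0.0637) or with each member thinned to 1000 UMIs (3.26 and 1.72, edgeR adjusted p = 0.135 and 0.125).

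Cryab, a small heat shock protein found in oligodendrocytes, on chr9:50751325-50756636, stood at 439.5, 514, 1637 and 1811 CPM. It was read in 29, 61, 54 and 34 members, no barcode held more than 18.9% of its UMIs in a library, and the groups were well apart. Its log2 fold change was 1.77 ± 0.29 (edgeR adjusted p = 0.0485). The call was lost without Ms4a3-cko 2, when the adjusted p was 0.0709 at a log2 fold change of 1.7, without predicted doublets (1.75, edgeR adjusted p = 0.0634), at 2000 or more UMIs (1.84, edgeR adjusted p = 0.0799) and with each member thinned to 1000 UMIs (1.81, edgeR adjusted p = 0.0798). It was kept in the members with at most 1% other-type UMIs (1.66, edgeR adjusted p = 0.0299). Among members with 2000 or more UMIs the levels were 418, 548, 1688 and 2002 CPM, and among the shallower ones they were 567, 456, 812 and 796 CPM, so the order of the groups was the same at both depths.

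Btc, the epidermal growth factor family ligand betacellulin, stood at 12.4, 7.25, 187 and 168 CPM. It was read in only 2 members of each Flox library and in 26 and 11 members of the Ms4a3-cko libraries, and its log2 fold change was 4.12 ± 0.53 (edgeR adjusted p = 0.0249). Lmo4 stood at 74.3, 87.0, 370.4 and 359.9 CPM, with a log2 fold change of 2.08 ± 0.33 (edgeR adjusted p = 0.041). Pakap, an anchoring protein of the A kinase whose symbol covers overlapping gene models so that its reads are uncertain, stood at 49.5, 90.6, 405 and 324 CPM, with a log2 fold change of 2.25 ± 0.37 (edgeR adjusted p = 0.0485). The 2 groups did not overlap for any of these 3 genes, and in the Ms4a3-cko libraries no barcode held more than 20.4% of the UMIs of any of them.

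The other 2 higher genes rested on few barcodes. Sox9, a glial and progenitor transcription factor, stood at 12.4, 10.9, 180.5 and 264 CPM, with a log2 fold change of 4.13 ± 0.53 (edgeR adjusted p = 0.0249), but 1 barcode held 79.5% of its 44 UMIs in Ms4a3-cko 2, whereas the 57 UMIs of Ms4a3-cko 1 lay in 11 barcodes. Without the members above 1% other-type UMIs, Sox9 stood at 7.74, 4.24, 191 and 287 CPM and was called (5.22, edgeR adjusted p = 0.012). That filter left all 44 Sox9 UMIs of Ms4a3-cko 2 in place, so the barcode with 79.5% of them was still included. Chil3, a chitinase-like protein of alternatively activated macrophages, stood at 6.19, 14.5, 446 and 486 CPM, with a log2 fold change of 5.23 ± 0.46 (edgeR adjusted p = 0.00435). Single barcodes held 87.9% and 98.8% of its UMIs in the Ms4a3-cko libraries. In the members with at most 1% other-type UMIs, Chil3 stood at 0, 12.7, 53.5 and 6.53 CPM and was too low to be tested.

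The 8 genes that fell are known mainly from myeloid and stromal cells. Lyz2, lysozyme of macrophages, stood at 10573, 5253, 253 and 618 CPM, and Apoe, the lipid carrier of microglia and astrocytes, stood at 879, 576, 60.2 and 108 CPM. Both Flox libraries were above both Ms4a3-cko libraries. The log2 fold changes were −4.30 ± 0.56 for Lyz2 and −3.25 ± 0.42 for Apoe (edgeR adjusted p = 0.0249 for each). In Flox 1, 1 barcode held 94.5% of the Lyz2 UMIs and 1 held 83.8% of the Apoe UMIs. Beside them, the monocyte-macrophage list had UMIs of 6 of its 7 markers in each Flox library (Arg1 at 0 in Flox 1, Ly6c2 at 0 in Flox 2), of all 7 in Ms4a3-cko 1 and of 6 in Ms4a3-cko 2 (Plac8 at 0), with summed levels of 5467 to 10907 CPM in Flox and 798 to 1200 CPM in Ms4a3-cko. Without the members above 1% other-type UMIs, Apoe stood at 155, 259, 56.8 and 58.8 CPM with a log2 fold change of −1.93 (edgeR adjusted p = 0.0476), and Lyz2 at 271, 793, 140.4 and 189.5 CPM with −1.79 (edgeR adjusted p = 0.0822).

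The antigen-presentation genes had few UMIs. Cd74, the invariant chain, stood at 217, 105, 0 and 0 CPM, from 64 UMIs in the Flox members and none in the Ms4a3-cko members (edgeR adjusted p = 0.0298). Most of the Flox UMIs lay in 1 barcode per library, so the absence in Ms4a3-cko sets no bound on the fold change. H2-Ab1, a class II chain, stood at 266, 119.6, 0 and 6.0 CPM (edgeR adjusted p = 0.0298). A single barcode held 74.3% and 72.4% of the Cd74 UMIs in Flox 1 and Flox 2. Neither barcode was among the members above 1% other-type UMIs, without which Cd74 stood at 271, 119, 0 and 0 CPM and H2-Ab1 at 333, 131, 0 and 6.53 CPM (edgeR adjusted p = 0.012 for each). Without predicted doublets neither was called (edgeR adjusted p = 0.0514 for Cd74 and 0.0523 for H2-Ab1). Lpl, lipoprotein lipase, stood at 799, 192, 12.7 and 12 CPM, and Ms4a7, a macrophage membrane protein, at 192, 119.6, 6.33 and 12 CPM. Mgp, matrix Gla protein, stood at 631, 228, 15.8 and 18 CPM, and Col1a2, a collagen chain of fibroblasts, at 792, 217, 19.0 and 0 CPM, with 97.7% of the Flox 1 UMIs of Col1a2 in 1 barcode. Without the members above 1% other-type UMIs, Mgp stood at 85.2, 246, 13.4 and 6.53 CPM (−3.98, edgeR adjusted p = 0.0236) and Col1a2 at 23.2, 72.0, 20.1 and 0 CPM. Of all 16 called genes, 11 were called in the members with at most 1% other-type UMIs, Lyz2 was tested and not called, and Chil3, Col1a2, Lpl and Ms4a7 were too low to be tested.

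**Figure D2:**
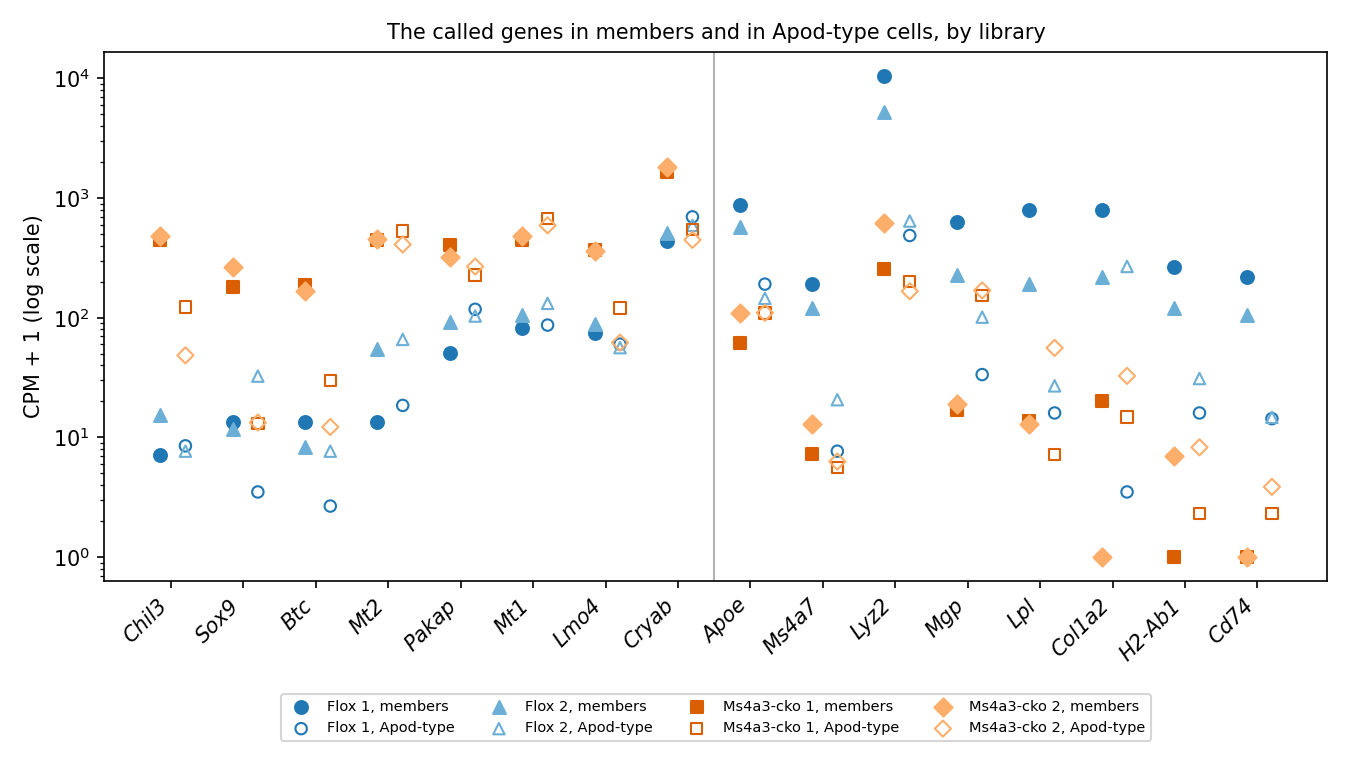
Level (CPM + 1, log scale) of the 16 called genes in members (filled) and Apod-type cells (open) of each library, with genes called higher in Ms4a3-cko left of the line and genes called lower right of it. Values at 0 CPM are drawn at 1. Cryab reaches 1637 and 1811 CPM in the Ms4a3-cko members against 439.5 and 514 CPM in the Flox members, while Lyz2 falls from 10573 and 5253 to 253 and 618 CPM.

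Structural myelin genes that the rule had not used were lower in most cases without passing the test over all members. Of 12 tested, Cryab was called higher, none was called lower, and 9 had both Ms4a3-cko libraries below both Flox libraries, an order that 23.8% of all 4511 genes showed. Their median log2 fold change was −1.47, beside −0.0026 over all genes. The members also differed in how they met the myelin part of the rule. All 6 rule myelin genes were read in 20, 35, 4 and 5 members, and exactly 4 in 20, 63, 49 and 33. After thinning to 1000 UMIs, 78.8, 63.8, 20.6 and 38.9% of the members of at least that depth still met the rule. The part of this in the lower myelin levels was not tested. Mal stood at 3343, 3634, 966 and 1673 CPM (log2 fold change −1.48 ± 0.35, edgeR adjusted p = 0.0946), Cnp, a myelin phosphodiesterase, at 737, 591, 196 and 294 CPM (−1.54 ± 0.34, edgeR adjusted p = 0.074) and Tppp, a microtubule-stabilising protein, at 724, 518, 180.5 and 252 CPM (−1.62 ± 0.35, edgeR adjusted p = 0.0663). In the members with at most 1% other-type UMIs, where 60 genes were called, Mal (−1.67, edgeR adjusted p = 0.0464), Cnp (−1.67, edgeR adjusted p = 0.0451), Tppp (−1.80, edgeR adjusted p = 0.0391) and Tspan2, a label marker and tetraspanin (−1.63, edgeR adjusted p = 0.0476), were called lower. DESeq2 over all members called Mal, Tppp, Tspan2 and Mbp lower as well (DESeq2 adjusted p = 0.0241, 0.0474, 0.0256 and 0.0424). None of these genes was called without predicted doublets, at 2000 or more UMIs or with each member thinned to 1000 UMIs. Opalin, a sialylated protein of the myelin loops, stood apart from them at 415, 297, 399 and 396 CPM with overlapping groups. For Mal both Flox libraries lay above both Ms4a3-cko libraries in the members with 2000 or more UMIs and in the shallower ones, at the levels given above.

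Genes of myelin lipid synthesis and of axon contact were also lower in part. Over all genes, 23.8% were lower and 24% higher without overlap. Of 13 lipid genes tested, none was called, 6 were lower and 3 higher without overlap, and the median was −0.25. Aspa, which frees acetate from N-acetylaspartate for lipid synthesis, stood at 446, 214, 57.0 and 78.0 CPM (−2.39 ± 0.47, edgeR adjusted p = 0.0604). Of 12 genes of axon-glia contact and channels, none was called, 7 were lower and none higher without overlap, and the median was −0.87. Omg stood at 167, 141, 25.3 and 36.0 CPM (−2.44 ± 0.45, edgeR adjusted p = 0.0586). In the members with at most 1% other-type UMIs, Aspa (−2.47, edgeR adjusted p = 0.0299), Omg (−2.64, edgeR adjusted p = 0.0245) and Elovl7, a fatty acid elongase of the lipid list (−1.96, edgeR adjusted p = 0.0299), were called lower, whereas none of these 3 was called without predicted doublets or at 2000 or more UMIs. The 9 cholesterol synthesis genes went the other way, with a median of 1.21, none called and 4 higher without overlap, the order that 24% of all genes showed in that direction.

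Among 11 oligodendrocyte transcription factors none was called, 4 were higher and 1 lower without overlap, beside 24% and 23.8% of all genes, and the median was −0.10. Sox2 stood at 129.99, 264, 763 and 389.9 CPM and Zfp536, a zinc finger repressor, at 347, 511, 956 and 762 CPM, so that both Ms4a3-cko libraries were above both Flox libraries. Olig2, which specifies the lineage, stood at 248, 127, 370.4 and 336 CPM, and Olig1, its neighbour and relative, at 545, 293, 370.4 and 162 CPM with overlapping groups. The 5 early-differentiation genes that could be tested had a median of 0.11 and no call.

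Of 14 genes known to respond to glucocorticoids, Mt1 and Mt2 were called higher, 8 were higher and 1 lower without overlap, and the median was 0.90. Over all genes 0.177% were called higher, 24% were higher without overlap and 23.8% were lower without overlap. Klf9, a Krüppel-like factor, stood at 210.5, 377, 978 and 1169.7 CPM (1.78 ± 0.34, edgeR adjusted p = 0.0586), Fkbp5, a chaperone of steroid receptors, at 80.5, 61.6, 231 and 222 CPM (1.61 ± 0.37, edgeR adjusted p = 0.0871) and Cdkn1a, the cell-cycle inhibitor p21, at 241, 264, 681 and 906 CPM (1.56 ± 0.31, edgeR adjusted p = 0.0604). For these 3 genes both Ms4a3-cko libraries were above both Flox libraries. Tsc22d3 and Sgk1, members of the same list, were at 105, 87.0, 50.7 and 54.0 CPM and at 737, 362, 484 and 648 CPM, the first lower in both Ms4a3-cko libraries and the second overlapping.

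Stress genes were mixed, and their counts stand beside 24% of all genes higher and 23.8% lower without overlap. In the antioxidant list of 10, none was called, 2 were higher and 4 lower without overlap, and the median was −0.07. Srxn1, sulfiredoxin, stood at 43.3, 159, 1038 and 564 CPM (2.83 ± 0.50, edgeR adjusted p = 0.0586), while Hmox1, haem oxygenase 1, stood at 80.5, 207, 25.3 and 48.0 CPM (−2.17 ± 0.56, edgeR adjusted p = 0.11). Of 9 genes of endoplasmic reticulum and integrated stress, 5 were higher and none lower without overlap and none was called, with a median of 0.46; Atf4, the central factor of that response, stood at 92.9, 174, 275 and 342 CPM. Of 14 heat shock and chaperone genes, Cryab was called, 5 were higher and 1 lower without overlap, and the median was 0.14. Of 8 genes of p53 and cell death, 4 were higher and 1 lower without overlap, none was called and the median was 0.44; Gadd45b stood at 6.19, 50.7, 129.8 and 168 CPM. None of 14 immediate early and 9 glycolysis and hypoxia genes was called, with medians of 0.15 and 0.08, and Adm, the hypoxia-induced peptide adrenomedullin, stood at 6.19, 32.6, 142 and 72.0 CPM.

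Of 13 genes of the disease-associated oligodendrocyte state, Apoe was called lower, 4 were higher and 1 lower without overlap, and the median was −0.0035. Over all genes 0.177% were called lower, and 24% and 23.8% were higher and lower without overlap. Il33, an alarmin of oligodendrocytes and astrocytes, stood at 1244, 1982, 2109 and 3515 CPM, and Serpina3n, a secreted protease inhibitor, at 142, 649, 434 and 419.9 CPM. Of 10 genes of the Ptgds-type mature state outside the rule, 2 were higher and 5 lower without overlap and none was called (median −0.90). Ptgds stood at 309.5, 319, 564 and 659.8 CPM and Anln at 173, 185, 44.3 and 42.0 CPM, with no overlap of the groups in opposite directions. The 7 iron genes had a median of −0.69, with Fth1, ferritin heavy chain, at 3268, 1609, 1241 and 1176 CPM. Only 3 of the 19 interferon-response genes were high enough to test (median −1.22, none called), and none of the 4 tested genes of MHC class I, 12 of the respiratory chain, 7 chemokines and cytokines, 4 of the circadian clock and 2 of the Klk6-type state was called (medians −0.72, 0.06, −0.63, 0.30 and −0.47).

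The genotype effect in members was then compared with that in Apod-type cells of the same libraries, in 1 edgeR fit with the library as a block. This comparison was added after the data were seen, and the division between the 2 sets rests on genes whose own levels differed between the genotypes. The effect differed for 76 of 8573 genes (0.887%), 23 of them more positive and 53 more negative in members, and in Apod-type cells alone 153 of 10544 genes (1.45%) were called. Cryab differed most clearly among the higher genes, since its values in Apod-type cells ran slightly the other way (696, 591, 543 and 447 CPM, log2 fold change −0.46 ± 0.20). The difference was 2.24 ± 0.24 (edgeR adjusted p = 0.000776). Opalin differed by 1.55 ± 0.24 (edgeR adjusted p = 0.00915), having fallen by 1.42 on the log2 scale in Apod-type cells, and Car2 by 1.27 ± 0.22 (edgeR adjusted p = 0.0143).

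Other genes differed in the negative direction. Anln had risen by 1.64 ± 0.17 in Apod-type cells (218, 254, 814 and 728 CPM), and the difference was −3.73 ± 0.32 (edgeR adjusted p = 6.45e-05). Cdkn1a had a log2 fold change of 3.85 ± 0.19 in Apod-type cells and differed by −2.26 ± 0.25 (edgeR adjusted p = 0.000776), and Fkbp5, at 3.40 ± 0.18 there, differed by −1.70 ± 0.36 (edgeR adjusted p = 0.0432). Mal was at −0.21 ± 0.30 in Apod-type cells and differed by −1.28 ± 0.22 (edgeR adjusted p = 0.0169). For Cdkn1a and Fkbp5 both sets of cells had higher values in Ms4a3-cko, and the difference was one of size.

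For the metallothioneins and Klf9 the test found no difference between both sets of cells. Mt1 had a log2 fold change of 2.47 ± 0.21 in Apod-type cells (edgeR adjusted p = 0.0117) and a difference of −0.19 ± 0.29 (edgeR adjusted p = 0.869). Mt2 had 3.37 ± 0.46 (edgeR adjusted p = 0.0352) and a difference of 0.27 ± 0.39 (edgeR adjusted p = 0.891). Klf9 had 1.96 ± 0.18 (edgeR adjusted p = 0.0117) and a difference of −0.15 ± 0.27 (edgeR adjusted p = 0.897). A p of that size does not show the effects to be equal, and the standard errors give the precision.

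**Figure D3:**
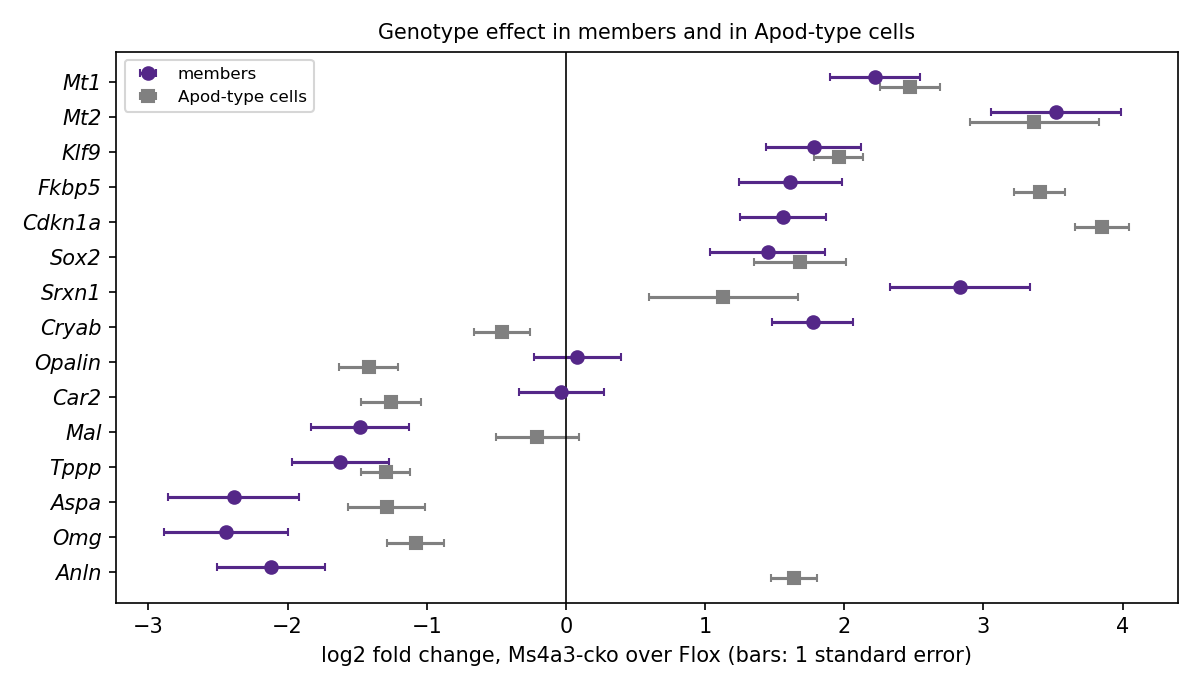
Log2 fold change, Ms4a3-cko over Flox, of 15 genes in members (circles) and Apod-type cells (squares), with bars of 1 standard error. Mt1, Mt2 and Klf9 lie close together in both sets, Cryab is at 1.77 in members and −0.46 in Apod-type cells, and Anln is at −2.12 in members and 1.64 in Apod-type cells.

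In Enpp6-positive cells 107 of 10118 genes (1.06%) were called, and the effect there differed from that in members for 61 of 8977 (0.68%), among them Cryab by 2.13 ± 0.25 (edgeR adjusted p = 0.00232) and Anln by −3.29 ± 0.36 (edgeR adjusted p = 0.00232). Against microglia (2461 to 4728 per library) the genotype effect differed for 194 of 13472 genes (1.44%), and against astrocytes (138 to 408 per library) for 58 of 8273 (0.701%). Microglia alone had 0 of 14162 genes called, and astrocytes alone had 4 of 9448 (0.0423%). Srxn1, at 0.02 ± 0.29 in microglia and 0.22 ± 0.34 in astrocytes, differed by 2.90 ± 0.39 (edgeR adjusted p = 4.82e-10) and by 2.64 ± 0.53 (edgeR adjusted p = 0.0387). Lmo4 differed by 1.78 ± 0.41 from microglia (edgeR adjusted p = 0.00254) and by 2.10 ± 0.40 from astrocytes (edgeR adjusted p = 0.0336). Mt1 was not separated from either, with differences of 0.91 ± 0.40 and 0.87 ± 0.48 (edgeR adjusted p = 0.413 and 0.479). Klf9, at 3.18 ± 0.39 in microglia, differed by −1.36 ± 0.36 (edgeR adjusted p = 0.0163). When every cell was thinned to 1000 UMIs, 13 genes differed from microglia, 32 from astrocytes and 44 from Apod-type cells.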

How the data were processed

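The authors used fastp 0.24.0, STARsolo and the mm10 genome, per the submitters' processing notes, while the annotation is not given in the sources used here. What they deposited is a matrix of unnormalized UMI counts, genes (31253) by barcodes, for each library. Members were chosen by the rule, their counts were summed per library, and genotypes were compared with edgeR 4.0.16 (R 4.3.3; TMM, filterByExpr, quasi-likelihood F test, Benjamini-Hochberg over all genes tested); DESeq2 1.42.0 was an alternative. Interactions kept the library as a block. Scrublet (scanpy 1.11.5, 6% expected) marked doublets, which were kept. Tested on simulated counts of 4145 genes for this comparison, edgeR called 21 of 90 genes changed 2-fold, 74 of 96 changed 4-fold and 8 of 3959 unchanged ones. The simulated counts were drawn per library at edgeR's fitted dispersion. They did not model UMIs concentrated in single barcodes, so these rates need not hold for the data. Named were Htr2b, Ms4a3, the 12 largest called changes each way with at least 20 CPM and no overlap, the 4 smallest p of each list, members with a described role, the 20 highest genes and the 10 largest state ratios each way; sex-linked, Gm, Rik, mt- and rule genes were left out. Members and lists were chosen with earlier results of these data known. Some items are not reported here.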

Additional observations from a re-analysis of the deposited data

Results flagged for a closer look

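Each value here is the genotype effect (log2 of Ms4a3-cko over Flox) in the members minus that in another class, and each difference passed edgeR's test of the interaction at 0.05 after Benjamini-Hochberg adjustment. Against microglia, the members' effect was more positive for Sox9 (3.84), Chil3 (3.03), Srxn1 (2.90), Lmo4 (1.78), Klf4 (1.67) and Cdkn1a (1.46). It was more negative than in microglia for the myeloid and stromal genes Cd74 (−11.34, a fitted value that depends on the prior count because Cd74 had no UMI in Ms4a3-cko members), Lpl (−3.77), Mgp (−3.07), Ms4a7 (−2.65), Apoe (−2.62), Lyz2 (−2.53) and Hmox1 (−2.25). The same held for the oligodendrocyte genes Mal (−3.18), Aspa (−2.59), Elovl7 (−2.45), Anln (−2.45), Fa2h (−2.03), Tspan2 (−1.51) and Cnp (−1.25), and for Klf9 (−1.36). Microglia were gated without a Mag or Mog UMI. The source of oligodendrocyte transcripts in microglia was not tested, so the differences of these oligodendrocyte genes cannot be placed in either class.

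Against astrocytes, the effect was more positive for Sox9 (3.95), Srxn1 (2.64), Mt2 (2.61), Lmo4 (2.10) and Sox2 (2.09), and more negative for Mal (−3.65), Apoe (−2.95), Aspa (−2.77), Omg (−2.76) and Lyz2 (−2.74). Sox9 in members rested on few barcodes. Astrocytes were also gated without a Mag or Mog UMI, and the source of Mal, Aspa and Omg transcripts in them was not tested.

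Against Apod-type cells, the effect was more positive for Sox9 (4.91), Cryab (2.24), Opalin (1.55) and Car2 (1.27), and more negative for Mgp (−5.78), Lpl (−4.94), Anln (−3.73), Lyz2 (−2.57), Apoe (−2.53), Cdkn1a (−2.26), Fkbp5 (−1.70) and Mal (−1.28). Against Enpp6-positive cells, it was more positive for Cryab (2.13), Opalin (1.68) and Olig2 (1.48), and more negative for Mgp (−5.20), Col1a2 (−4.49), Anln (−3.29), Apoe (−2.56), Cdkn1a (−2.10) and Mal (−1.30). Cryab, Opalin, Anln, Cdkn1a, Apoe, Mgp and Mal thus differed from both other oligodendrocyte states in the same direction. All of these fits kept the members above 1% other-type UMIs. As given above, single barcodes held most Chil3 UMIs in each Ms4a3-cko library and most Lyz2, Apoe and Col1a2 UMIs in Flox 1. Mgp in Flox 1 was much lower without those members, and Chil3, Col1a2, Lpl and Ms4a7 were then too low to be tested.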

How the results depend on the processing

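The 16 genotype calls depended on which barcodes, libraries and genes entered the test. The count was 63 with DESeq2, 330 with no filter on low counts, 37 with a mean of at least 50 counts, 31 with under 10% mt- UMIs, 7 without Scrublet-predicted doublets, 7 with 2000 or more UMIs per cell and 1 with each member thinned to 1000 UMIs. No gene was called in edgeR among members with 0 Apod-type genes (158 at an unadjusted p under 0.05), with 6 of 6 myelin genes (118) or with no UMI of 6 genes of other cell types (242). An alternative added after the data were seen gave 60 with at most 1% other-type UMIs. Leaving out 1 library gave 0 to 441; all 16 calls were lost without Flox 1 and Cryab's without Ms4a3-cko 2. Every called gene that could be tested kept its direction under each of these settings.

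With the replicate number as a block, 14 genes were called (11 of the 16; Mt1, Lmo4, Pakap, Cryab and Lyz2 were lost), and a crossed block, Flox 1 with Ms4a3-cko 2, gave 43. The numbers do not pair the libraries (correlation of replicate differences between groups −0.107 over 2422 genes), so neither is a paired analysis. DESeq2's size factors in edgeR gave 11, losing Cryab, Lmo4, Pakap, Lpl and Col1a2.

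The difference in the share of all kept barcodes was −0.517 to 0.0577 points over the libraries left out, and it reversed to 0.0577 without Flox 2. The difference in the share of gated oligodendrocytes, −5.84 points, was −7.58 to −4.10 points over the libraries left out, −4.42 without predicted doublets, −4.15 with 3 or more myelin genes and −1.63 with 0 Apod-type genes (the groups overlapped in these last 2), and −12.2 with the rule applied after thinning to 2000 UMIs. The interaction counts at 1000 UMIs per cell were 13 for microglia, 32 for astrocytes and 44 for Apod-type cells. With 2 libraries per group and 161546 to 315852 member UMIs each, most genes were too low to be tested.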
